A study of Brassica napus with 12 samples.

Results

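The IDs described here are 100 gene models of canola (Brassica napus) that lie beside each other by number, out of 60756 IDs in the deposited count table. They are all the IDs whose ERC number lies between those of ERC35951 and ERC36108, both included, and whose mean CPM (the count divided by the library's total count, times 1000000) over the 12 libraries was 0.5 or more. The stretch was selected on measured values: its single IDs had been seen to be higher, and its joined IDs lower, in PEG libraries than in EUE libraries. All differences between PEG and EUE are therefore given as a description, with no test. An ID is either single, such as ERC36061, or joined from an ERF and an ERC number, such as ERF66275-ERC36104. The members are 30 single ERC IDs and 70 joined IDs. The deposited table pairs none of them with a gene name, so no function can be given for a member.

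Polysomal RNA was sequenced from leaf 4 of 26-day-old untreated plants that had grown 2 weeks on agar with sucrose and 12 days in soil. In the PEG experiment the groups were the selected line PEG-1, the selected line PEG-2 and the PEG control, with 2 libraries each. In the EUE experiment they were the EUE epiline and the EUE control, with 3 libraries each. The series text speaks of 2 epilines picked because they respire little and are rich in NAD(P)H, and of triplicates, and the labels call the libraries biological replicates without naming the plants behind them. The labels do not spell out PEG or EUE, and each experiment has its own control. PEG and EUE libraries differ in experiment as well as in plant line, and these cannot be told apart. Library totals were 36210542 to 42696798 counts.

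Canola is a polyploid crop that formed from a pair of related Brassica genomes, so many of its genes are present as near-identical copies from each parent, called homoeologues. Polysomal RNA is messenger RNA bound to several ribosomes, and its level follows both how much of a transcript a leaf holds and how strongly it is being translated. Leaf RNA is a bulk measure: fewer cells that hold a transcript and less transcript per cell cannot be told apart. How single and joined IDs were made is not stated in the sources, and reads shared between near-identical copies could have been assigned to either.

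Each number of the range carries exactly 1 ID. Of its 63 single IDs 30 reached the minimum, and of its 95 joined IDs 70 did. The other 58 IDs were left out: 33 single IDs, of which 15 had no count in any library, and 25 joined IDs, of which 7 had none. The minimum is a mean over all libraries, so a member can have passed it through the libraries in which it is high. The 2 IDs just under it, ERC36048 and ERC35999, averaged 0.895 and 0.882 CPM in PEG libraries and were listed at 0 in every EUE library. The 2 just over it were ERC36034, with a mean of 0.536 CPM in PEG and 0.571 CPM in EUE libraries, and ERC36073, with 0.421 CPM in PEG and 0.868 CPM in EUE libraries.

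The stretch is not uniform in its numbering. Apart from 2 joined IDs with 0 counts in every library, the joined IDs of the range form 2 runs in which the ERF numbers climb together with the ERC numbers in steps of at most 20. The first run has 36 of them, ERC35952 to ERC36006 joined with ERF86517 to ERF86568. The second run has 57, ERC36010 to ERC36104 joined with ERF66182 to ERF66275. Both runs go on beyond the stretch, the first before it and the second after it. The first run holds 5 single and 26 joined members, the second run holds 24 single and 44 joined members, and ERC36007 lies between them. This division was made after the values had been seen. The opposite differences of the 2 classes lie in different runs: it was the single IDs of the second run that were higher in PEG libraries, and the joined IDs of the first run that were lower.

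**Figure D1:**
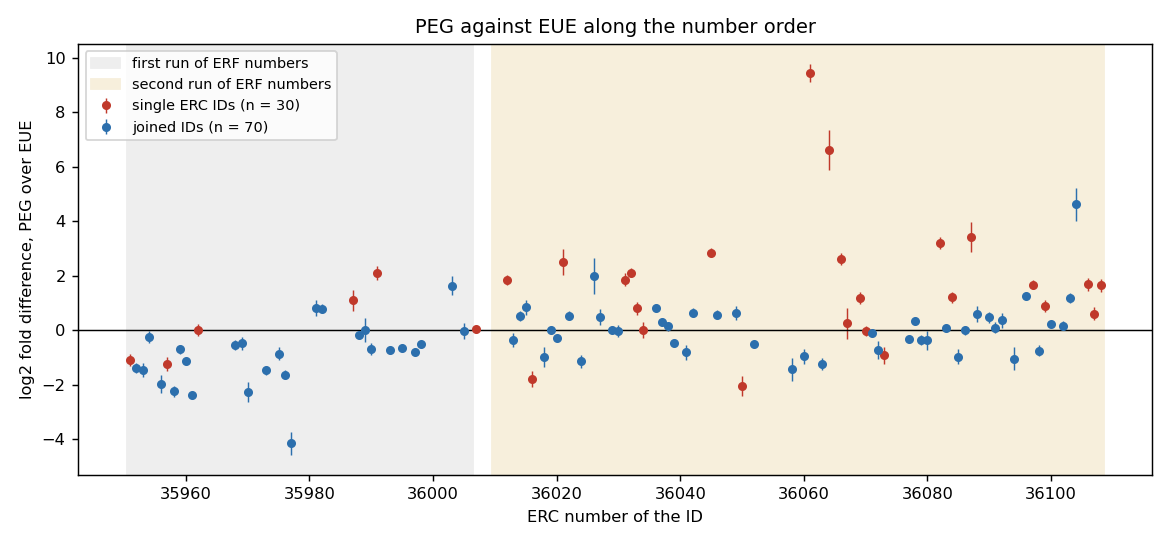
Fitted log2 fold of PEG over EUE libraries (y axis) for each of the 100 members in order of ERC number (x axis), with single and joined IDs in separate colours, the 2 runs shaded and error bars of 1 standard error. Most joined IDs of the first run lie below 0 (22 of 26) and most single IDs of the second run above it (20 of 24), while the joined IDs of the second run scatter on both sides of 0.

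Over the whole stretch, the median single ID was 2.28-fold higher in PEG than in EUE libraries (log2 difference 1.19), and the median joined ID had 0.809 times its EUE level in PEG libraries (log2 −0.31). Among single IDs 24 were higher and 6 lower in PEG libraries. In 16 of them all 6 PEG libraries lay above all 6 EUE libraries, a pattern seen in 5.56% of all single ERC IDs at or over the minimum, and in 4 all PEG libraries lay below, seen in 7.06% of all. Among joined IDs 28 were higher and 42 lower in PEG libraries. In 5 of them all PEG libraries lay above all EUE libraries, against 3.7% of all joined IDs, and in 24 all lay below, against 7.64%. Since these values chose the stretch, nothing is read from the shares. Over the whole table the median log2 difference was −0.02 in 6803 single ERC IDs and −0.06 in 15924 joined IDs.

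In the second run the single IDs had a median log2 difference of 1.66, or 3.15-fold. Of the 24, 15 had all PEG libraries above all EUE libraries (5.56% of all single ERC IDs) and 2 had all below (7.06%). Summed over the 24 IDs they gave 160.05 ± 3.62 CPM in PEG libraries and 48.3 ± 3.04 CPM in EUE libraries (SD, n = 6 each). The 6 PEG sums lay between 155.71 and 164.79 CPM and the 6 EUE sums between 44.576 and 53.095 CPM, so the experiments were far apart and the libraries within each close together. A single ID, ERC36061, carried part of this: without it the sum was 130.5 ± 5.62 CPM in PEG and 48.2 ± 3.05 CPM in EUE libraries. The 44 joined IDs of the same run had a median log2 difference of 0.04, with 24 higher and 20 lower in PEG libraries. Their sums, 872 ± 55.3 CPM in PEG and 903 ± 122 CPM in EUE libraries, overlapped. Single members of this set still differed: 4 had all PEG libraries above all EUE libraries (3.7% of all joined IDs) and 5 had all below (7.64%). Their quartiles were −0.48 and 0.52, against −0.40 and 0.23 in all joined IDs.

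The ERF numbers of the second run also occur as single ERF IDs, which are not members. Of these, 17 reached the minimum, and their direction was the opposite of that of the single ERC IDs: the median log2 difference was −0.76, with 3 higher and 14 lower in PEG libraries. In 1 of them all PEG libraries lay above all EUE libraries and in 8 all lay below; the shares of all single ERF IDs were 5.7% and 8.91%. Their sum was 174 ± 9.11 CPM in PEG libraries and 229 ± 13.1 CPM in EUE libraries (SD, n = 6 each). PEG sums reached 184.08 CPM at most and EUE sums were at least 216.13 CPM, so these did not overlap either. When the single ERC, joined and single ERF IDs of the second run were added up, the 85 IDs gave 1205 ± 61.2 CPM in PEG libraries and 1180 ± 119 CPM in EUE libraries. The total of the run differed by less than the spread between libraries, while the single ERC and single ERF sums differed by more. Most of the total came from the joined IDs, whose sums had an SD of 122 CPM in EUE libraries. The totals therefore cannot show if the differences of the single ERC and single ERF IDs balanced each other.

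**Figure D2:**
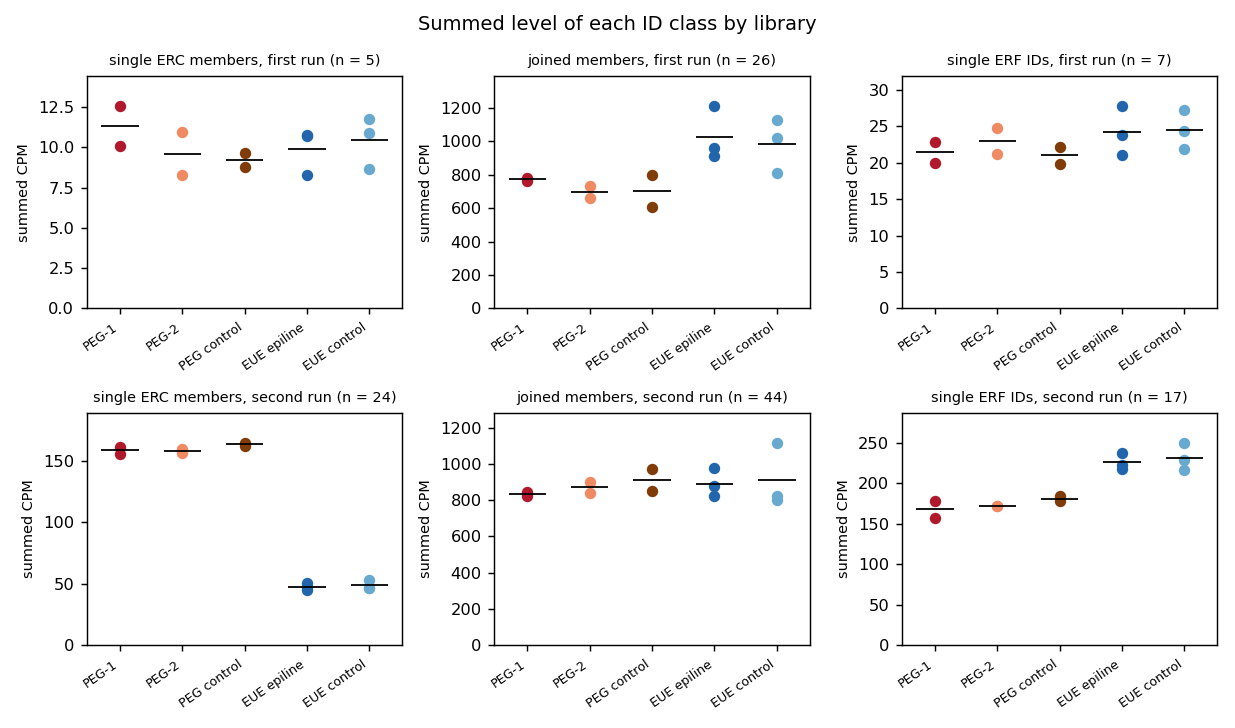
Summed CPM per library (y axis) of the single ERC, joined and single ERF IDs of each run, with 1 point per library, a bar at each group's mean and the groups PEG-1, PEG-2, PEG control, EUE epiline and EUE control side by side. In the second run the single ERC IDs sum to 155.71 to 164.79 CPM in PEG and 44.576 to 53.095 CPM in EUE libraries, the single ERF IDs are higher in EUE, and the joined IDs overlap.

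The first run showed another pattern. Its 26 joined IDs had a median log2 difference of −0.72, which is 0.608 times the EUE level, with 4 higher and 22 lower in PEG libraries. In 19 of them all PEG libraries lay below all EUE libraries, against 7.64% of all joined IDs, and in 1 all lay above, against 3.7%. Of the 26, 10 were at least 2-fold lower, where 1028 of 15924 joined IDs of the whole table were. These values chose the stretch, so nothing is read from the shares. The sum of the 26 joined IDs was 725 ± 74.0 CPM in PEG libraries and 1008 ± 146 CPM in EUE libraries (SD, n = 6 each). The highest PEG sum, 799.5 CPM, was just under the lowest EUE sum, 808.62 CPM, so the gap between the experiments was small beside the spread within them. The 5 single IDs of the first run summed to 10.0 ± 1.55 CPM in PEG and 10.2 ± 1.38 CPM in EUE libraries and the 7 single ERF IDs to 21.8 ± 1.89 CPM in PEG and 24.4 ± 2.72 CPM in EUE libraries, with overlap in both cases. Within the 5 the differences ran both ways, with 2 at least 2-fold higher and 2 at least 2-fold lower in PEG libraries. All PEG libraries lay above all EUE libraries in 1 of them (5.56% of all single ERC IDs) and below in 2 (7.06%). With all 3 classes added, the 38 IDs gave 756 ± 74.6 CPM in PEG and 1042 ± 147 CPM in EUE libraries. Unlike those of the second run, these totals did not overlap in CPM, with at most 830.5 CPM in PEG and at least 847.6 CPM in EUE libraries. The highest PEG value was that of PEG control replicate 2, and the lowest EUE value that of EUE control replicate 2. Their TMM factors were 0.917 and 1.09. TMM scaling, used in the fits, raises the first and lowers the second by more than the gap. The same libraries bound the joined sums, so neither separation holds after TMM scaling. The 2 most abundant joined IDs weigh heavily in them. ERF86519-ERC35954 averaged 318 CPM in PEG and 412 CPM in EUE libraries, with overlap. ERF86552-ERC35990 averaged 115 and 204 CPM, without overlap in CPM but with overlap after TMM scaling. ERC36007, between the runs, had 30.6 ± 2.86 CPM in PEG and 32.9 ± 4.47 CPM in EUE libraries.

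The share of all member counts that fell on single IDs sums this up in 1 number per library. It was 10.996% ± 0.454 for PEG-1, 11.4% ± 0.0781 for PEG-2 and 11.1% ± 0.548 for the PEG control (SD, n = 2 each), against 4.61% ± 0.424 in the EUE epiline and 4.53% ± 0.101 in the EUE control (SD, n = 3 each). The lowest PEG library had 10.7% and the highest EUE library 4.95%. Lines and controls of the same experiment had like shares, and the 2 experiments did not overlap. Within the second run the share was 15.5% ± 0.686 in PEG and 5.15% ± 0.732 in EUE libraries (SD, n = 6 each).

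The single IDs with the widest differences were both higher in PEG libraries. ERC36061 had 23.9 CPM at the lowest, 30.6 CPM in the median and 32.4 CPM at the highest in PEG libraries. In EUE libraries it had 0.159, 0.050 and 0.098 CPM in the epiline and 0.054, 0 and 0 CPM in the control. It was plainly present in every PEG library and near the limit of detection in every EUE library, where no library had more than 6 counts. In read pairs this was 3308 in PEG and 7 in EUE libraries, a ratio of 496 once scaled by the library totals. The ratio is given as a description because ERC36061 passed the minimum through its PEG libraries. ERC36064 had 1.61 and 2.41 CPM in PEG-1, 0.783 and 1.66 CPM in PEG-2, and the PEG control had 0.772 and 1.22 CPM. In EUE libraries it had 0.053, 0.149 and 0 CPM in the epiline and 0 in each of the 3 controls. It was low everywhere, but every PEG library was above every EUE library. Each PEG library had 28 to 92 counts and no EUE library more than 6. The ratio of read pairs, scaled by the library totals, was 41.5. ERC36064 too passed the minimum through its PEG libraries.

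Single IDs of the second run were not all higher in PEG libraries. ERC36050 had 0.317 to 1.24 CPM in PEG libraries and 1.56 to 5.05 CPM in EUE libraries (log2 −2.06, standard error 0.36). ERC36016 had 0.166 to 0.441 CPM in PEG and 0.782 to 1.75 CPM in EUE libraries (log2 −1.79, standard error 0.30). For both, the nearest single members by number on either side were higher in PEG libraries, while the joined IDs around them went both ways. No library had more than 5.05 CPM of ERC36050 or 1.75 CPM of ERC36016. In order of their difference, 15 of the 24 single IDs were at least 2-fold higher in PEG libraries, 2 were at least 2-fold lower and the other 7 lay between. Of the 6803 single ERC IDs of the whole table, 514 were at least 2-fold higher and 479 at least 2-fold lower. ERC36045, an ID of the first kind singled out after its values were seen, had 17.6 to 21.6 CPM in PEG libraries and 1.81 to 4.25 CPM in EUE libraries.

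Among joined IDs the widest difference towards PEG was in ERF66275-ERC36104, the last joined ID of the second run within the stretch. It had 6.29 and 15.3 CPM in PEG-1, 3.66 and 16.1 CPM in PEG-2 and, for the PEG control, 2.48 and 18.5 CPM, against 0.272 to 0.850 CPM in EUE libraries (log2 4.62, standard error 0.61; 3.90 without PEG control replicate 2). Replicate 2 was above replicate 1 in each PEG group, so the libraries of a PEG group differed by more than the PEG groups did. ERF86566-ERC36003 had 17.7 to 24.1 CPM in PEG libraries. In EUE libraries it had 3.45, 12.5 and 7.28 CPM in the epiline and 3.71, 13.9 and 4.22 CPM in the control (log2 1.62, standard error 0.35). It was the 1 joined ID of the first run with all PEG libraries above all EUE libraries, and replicate 2 was the highest in both EUE groups.

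The widest differences towards EUE were both in the first run. ERF86537-ERC35977 had 0.484 and 0.261 CPM in PEG-1, 0.261 and 0.0552 CPM in PEG-2 and, for the PEG control, 0.441 and 0.158 CPM. It had 2.87, 8.91 and 5.18 CPM in the EUE epiline and 2.47, 6.90 and 4.68 CPM in the EUE control (log2 −4.15, standard error 0.43). No PEG library came near an EUE library, and replicate 2 was again the highest in both EUE groups. ERF86525-ERC35961 varied much less, with 2.76 to 3.97 CPM in PEG libraries and 16.1 to 21.8 CPM in EUE libraries (log2 −2.39, standard error 0.13), or 5.23-fold lower in PEG.

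**Figure D3:**
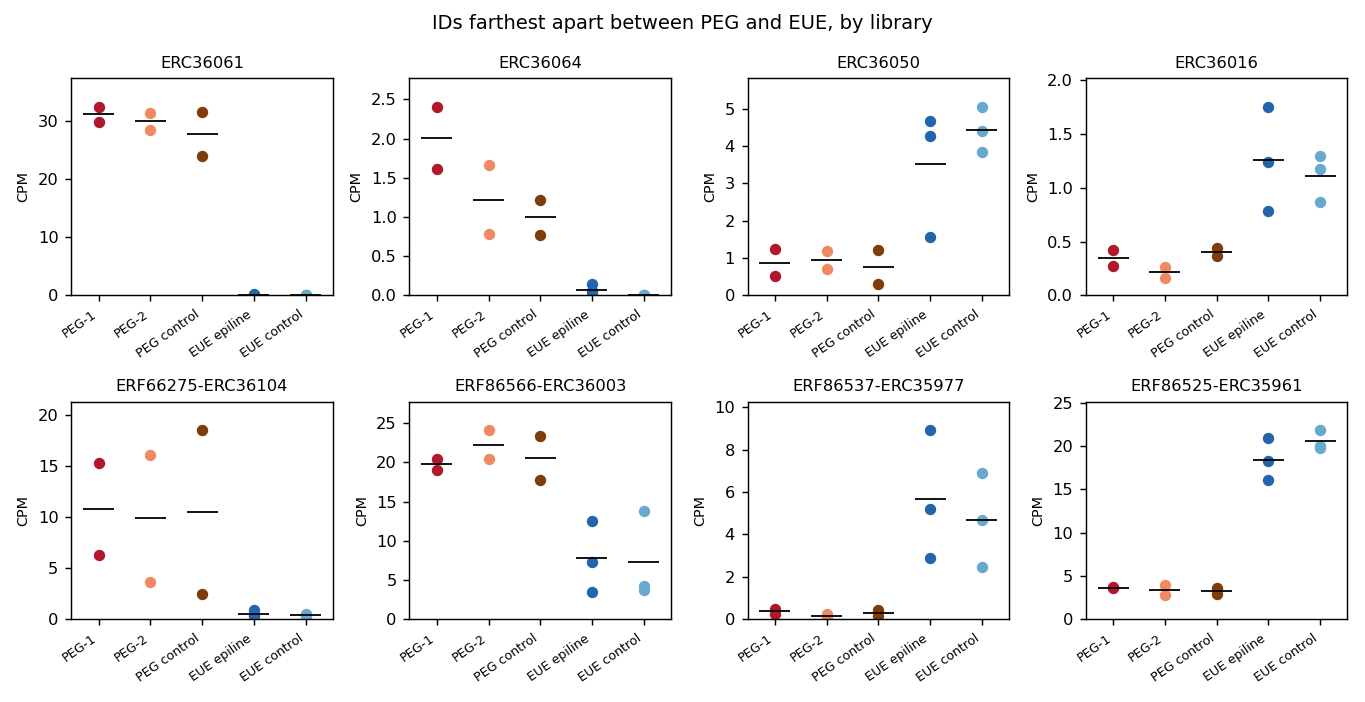
CPM per library (y axis, linear) for 8 members, 1 panel per ID, with the 5 groups along the x axis, 1 point per library and a bar at each group's mean. They are the 2 highest and 2 lowest log2 differences of each class among members whose PEG and EUE libraries did not overlap. Some single IDs not shown differed more than some of those shown. ERC36061 stands at 23.9 to 32.4 CPM in PEG and at 0.159 CPM or less in EUE libraries, and the controls lie with the selected lines of their own experiment.

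Controls and selected lines were also set apart. Between the PEG control and the EUE control alone, the median log2 difference was 1.34 in single and −0.28 in joined members, and between the selected lines of the 2 experiments it was 1.03 in single and −0.24 in joined members. In the second run the single IDs had medians of 1.60 between controls and 1.70 between lines. In the first run the joined IDs had −0.73 between controls and −0.76 between lines. The direction was the same in both for 26 of 30 single and 62 of 70 joined members. These are different libraries of the same 2 experiments, and both entered the choice of the stretch.

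**Figure D4:**
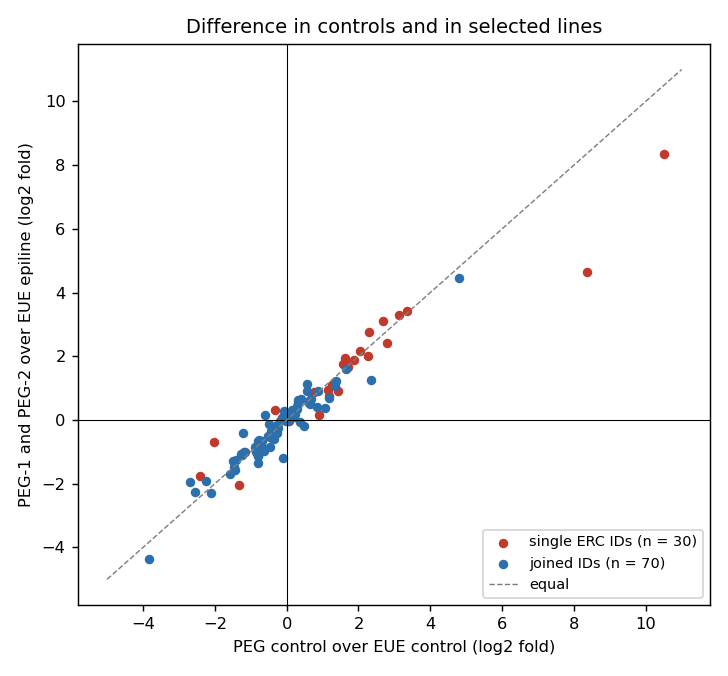
Log2 fold of PEG-1 and PEG-2 over the EUE epiline (y axis) against log2 fold of the PEG control over the EUE control (x axis), 1 point per member, with a dashed line of equal values. Points follow the line in both classes; the 2 single IDs farthest to the right, ERC36061 and ERC36064, have EUE control libraries at 0 or nearly so, and their fitted folds depend on the small count added to zeros.

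Beside the stretch the picture was different in the single IDs. Among as many numbers before it, 17 single IDs reached the minimum, with a median log2 difference of 0.10, 9 higher and 8 lower in PEG libraries. Among as many after it, 26 single IDs had a median of −0.05, with 12 higher and 14 lower. Joined IDs had a median of −0.22 before the stretch (67 IDs, 24 higher and 43 lower) and 0.02 after it (68 IDs, 35 higher and 33 lower). The median single ID was close to 0 in both neighbouring ranges, whereas the joined IDs before the stretch, the last of which belong to the first run, were more often lower than higher. The single IDs before it had a tail towards EUE, with quartiles of −0.77 and 0.24. Of these 17, all PEG libraries lay below all EUE libraries in 4 (7.06% of all single ERC IDs) and above in 0 (5.56%). Among the 26 after it these counts were 3 and 1. At the edges, the first member ERC35951 averaged 1.75 CPM in PEG and 4.12 CPM in EUE libraries. ERF86511-ERC35947, the nearest ID before it that reached the minimum, averaged 24.2 CPM in PEG and 89.2 CPM in EUE libraries. The last member ERC36108 averaged 3.62 CPM in PEG and 1.25 CPM in EUE libraries. ERF66280-ERC36112, the nearest after it that reached the minimum, averaged 19.3 CPM in PEG and 34.7 CPM in EUE libraries.

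Each selected line was then set against its own control, a comparison that did not choose the stretch but that shares its control libraries. No member passed an adjusted p of 0.05 in edgeR's quasi-likelihood test, in any of the 3 lines, nor did any of the 36410 IDs tested (0.0%). At an unadjusted p under 0.05 there were 3 members for PEG-1 (3.6% of all tested IDs), 0 for PEG-2 (1.88%) and 7 for the EUE epiline (4.17%), of which 6 were higher and 1 lower; with the replicate number as a block the EUE split was 6 higher and 7 lower. DESeq2 likewise called 0 members in each line, where it called 0.398% of all IDs for PEG-1, 0.0467% for PEG-2 and 1.05% for the EUE epiline. The median log2 difference over the members was −0.07 for PEG-1 (−0.03 over all tested IDs), 0.00 for PEG-2 (−0.01) and −0.04 for the EUE epiline (−0.03). In single IDs it was −0.04 for PEG-1, 0.01 for PEG-2 and −0.07 for the EUE epiline, and in joined IDs −0.07 for PEG-1, −0.01 for PEG-2 and −0.04 for the EUE epiline. The gap between the classes seen between experiments was not seen between a line and its control.

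**Figure D5:**
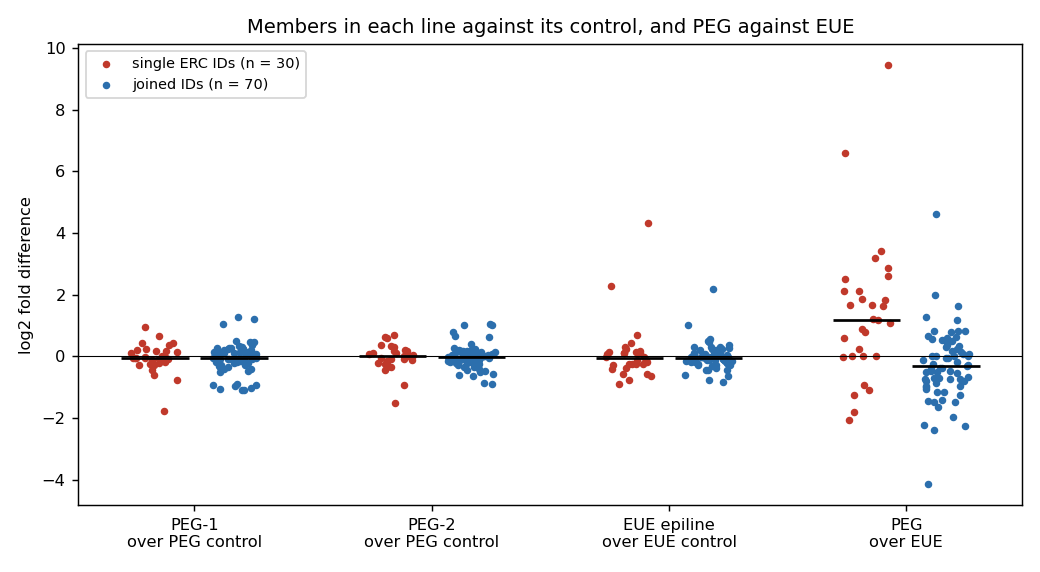
Log2 fold of each selected line over its own control (y axis) for the single and joined members, 1 point per member with a bar at the median, for PEG-1, PEG-2 and the EUE epiline along the x axis, and at the right the log2 fold of PEG over EUE libraries. In the 3 lines the medians of both classes lie between −0.07 and 0.01, beside 1.19 and −0.31 for PEG over EUE, and no point of a line passed an adjusted p of 0.05 in edgeR's quasi-likelihood test over all libraries.

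All libraries of PEG-1 lay above both control libraries in 22 members and below them in 12, where 18.5% and 12.1% of all IDs did. In PEG-2 this was so for 15 and 12 members, against 13.8% and 11.8% of all IDs, and in the EUE epiline for 2 and 3 members, against 5.22% and 1.45%. In PEG-1 and PEG-2 the counts, out of 100 members, were near the shares of the whole table. In single members, differences ran from −1.78 to 0.96 on the log2 scale for PEG-1, from −1.52 to 0.70 for PEG-2 and from −0.90 to 4.33 for the EUE epiline, where the highest value is that of ERC36064, which was at or under the floor in both groups, and is no measure of a fold. The difference between a PEG line's effect and that of the EUE epiline was tested as an interaction. It called 0 members for PEG-1 and 0 for PEG-2 in edgeR (0.0% of all IDs) and in DESeq2 (0.00275% and 0.00549%), with 2 and 3 members at an unadjusted p under 0.05 in edgeR (1.11% and 0.926% of all IDs).

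In PEG-1 the member with the smallest p was ERF66203-ERC36036, with 29.2 and 30.3 CPM in PEG-1 and 62.1 and 48.3 CPM in the PEG control. The libraries did not overlap, but the log2 difference of −0.93 ± 0.26 (standard error) had an adjusted p of 0.811 in edgeR. In PEG-2 the same ID had 35.8 and 45.5 CPM, a log2 difference of −0.44 ± 0.26 with an adjusted p of 1. On the other side, ERF66262-ERC36092 had 10.1 and 16.2 CPM in PEG-1 against 4.63 and 5.76 CPM in the PEG control (log2 1.29 ± 0.47, adjusted p of 1). ERF66254-ERC36085 had 1.04 and 1.49 CPM in PEG-2 against 0.661 and 0.581 CPM in the PEG control (log2 1.03 ± 0.48, adjusted p of 1).

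In the fit without a replicate block, the smallest p among lower members of the EUE epiline was that of ERC36045. This ID is one of the single IDs that were higher in PEG libraries. It had 2.87, 2.69 and 1.81 CPM in the EUE epiline and 4.25, 3.21 and 3.51 CPM in the EUE control, with a log2 difference of −0.64 ± 0.21 and an adjusted p of 0.601 in edgeR. Among higher members it was that of ERC36061, with 6, 2 and 4 counts in the epiline and 2, 0 and 0 counts in the control. Both groups are at or under the floor of 3 read pairs (6 counts) per library, so no fold is given. The adjusted p of ERC36061 was 0.751 in edgeR. With the replicate number as a block, the adjusted p in edgeR was 0.188 for ERC36045 and 0.317 for ERC36061. The smallest adjusted p among all members in the blocked fit of the EUE epiline was 0.0584, that of a joined ID.

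Fits with the replicate number as a term were run as alternatives. With the number as a block in the fit over all libraries, 0 members were called for PEG-1, PEG-2 or the EUE epiline (0.00275%, 0.0% and 0.19% of all IDs). At an unadjusted p under 0.05 the blocked fit had 11 members for PEG-1 (10.1% of all IDs), 3 higher and 8 lower, and 7 for PEG-2 (5.96%), 2 higher and 5 lower. For the EUE epiline, whose libraries were taken as paired by number, it had 13 members (8.48%), 6 higher and 7 lower. A fit of the PEG libraries alone with the same block, added after the data were seen, called 3 joined members in PEG-1, where it called 1.99% of all IDs. They were ERF66262-ERC36092 (log2 1.26 ± 0.185, adjusted p 0.00573 in edgeR), ERF66203-ERC36036 (log2 −0.94 ± 0.191, adjusted p 0.0356) and ERF66197-ERC36027 (log2 −1.04 ± 0.156, adjusted p 0.00700). Over the alternatives run, the adjusted p of ERF66262-ERC36092 was 0.00573 to 1 and that of ERF66203-ERC36036 was 0.0356 to 1. ERF66197-ERC36027 had 19.3 and 37.4 CPM in PEG-1 against 37.3 and 76.1 CPM in the PEG control, so that the groups overlapped, replicate 2 was the higher in both and PEG-1 was the lower within each number. The same fit called 0 members in PEG-2 (0.604% of all IDs), and the like fit of the EUE libraries called 0 in the EUE epiline (0.00592%). In PEG the labels give the 2 numbers no meaning beyond the replicate, so they are not known to pair plants.

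Members varied between libraries of a group by a median SD of 0.37 on the log2 scale in single and 0.35 in joined IDs. Those with an SD of 1 or more were ERC36067 (1.25), ERF66196-ERC36026 (1.22) and ERF66275-ERC36104 (1.08), singled out after their values were seen. In the 3 PEG groups, replicate 2 differed from replicate 1 in the same direction in 13 of 30 single members and in 44 of 70 joined members, where 44.7% of all single ERC IDs and 49.6% of all joined IDs did so.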

How the data were processed

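The authors deposited 1 table of read counts per gene ID, not normalized, with 1 column for each of 12 libraries of polysomal leaf RNA. GSNAP and SAMtools are named in the submitters' processing notes, without versions or roles; no source used here names the genome, annotation or counting program, or says if strand was used. All values in the deposited count table were even (0 odd), so read pairs may have been counted 2 times; the floor for an ID at 0 was therefore set to 6 counts, or 3 read pairs, and it covers counting error only. Totals were 36210542 to 42696798 counts. Of the IDs, 0 were found in RefSeq's table of canola genes.

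The members and lists were chosen with earlier results of these data known. CPM values are counts over column totals, and statements on the overlap of libraries rest on them without TMM scaling unless stated. Log2 differences come from a quasi-likelihood fit in edgeR 4.0.16 (R 4.3.3) of the 5 group means to all 12 libraries, after TMM scaling and removal of low IDs by filterByExpr at a minimum count of 10. Benjamini-Hochberg adjustment covered 36410 IDs, with a threshold of 0.05, and the F statistic gave the standard errors. All 100 members were in the fit. Each line was tested against its own control, and a PEG line's effect against that of the EUE epiline. DESeq2 1.42.0, other scalings, filters, edges of the stretch, a replicate block and each library left out were alternatives. The edgeR fit without a block was tested on simulated data, with changes planted in PEG-1 only and libraries drawn independently. The share of planted changes found is not given here, so the simulation does not show which folds the line comparisons could miss.

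Named members were, between PEG and EUE, the 2 highest and 2 lowest of each class whose libraries did not overlap; in the line comparisons, called members or else the smallest p in each direction; and those next to the limits of the rule. Other IDs, the 2 runs and the single ERF IDs were picked after their values were seen. Same-numbered EUE libraries deviated together over the table (r of 0.617, 0.739 and 0.614 in the 3 pairs) and were taken as paired by number; the 2 PEG numbers (r of 0.531 to 0.687) are too few to decide this. No 2 libraries of a group agreed within sampling noise (chi-square per ID of 15.4 to 50.5).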

Additional observations from a re-analysis of the deposited data

How the results depend on the processing

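With the replicate block in the fit over all libraries, 0 members were called in each of the 5 comparisons, as without it; with the block and the PEG libraries only, 3 members were called in PEG-1, and the cause was not tested. The block with 1 experiment only could not be run for the 2 interactions, which need both experiments. The median log2 difference of single IDs between PEG and EUE, 1.19, was 1.03 in the selected lines only; 1.43, 1.43 and 1.84 at a minimum mean of 0, 1 and 5 CPM; 1.51 with 25 numbers taken off at each end and 0.61 with 50 added. It was 1.07 to 1.36 with 1 library left out, 0.017 in the first run and 1.66 in the second. That of joined IDs, −0.31, was −0.077 at 5 CPM, −0.15 with 25 numbers taken off and −0.087 with 50 added. It was −0.43 with column totals, which move the median of all IDs by −0.13, and −0.44 as a ratio of mean CPM. It was −0.72 in the first run and, with its sign turned, 0.036 in the second, and −0.32 to −0.26 with 1 library left out. The gap in the share of counts on single IDs, 6.60 percentage points, was 5.67 at 5 CPM, 8.80 with 25 numbers taken off, 3.78 with 50 added, 10.4 in the second run and 0.355 in the first, and 6.52 to 6.70 with 1 library left out. For the edges and minimums, the members counted differ by construction. Of 177 alternatives for 14 values of named IDs, 0 turned the direction, 2 passed the threshold, and 3, of values with no test, moved by more than the spread between replicates. Smaller moves can still be wide in fold: ERF66275-ERC36104 was 3.90 on the log2 scale without PEG control replicate 2, against 4.62. The fitted value of ERC36061 in the EUE epiline, which is at the floor, was 1.77 to 4.92 with 1 library left out. Leaving out a PEG library leaves a group with 1 library, assumed to vary like the other groups. Depth limits ERC36061 and ERC36064 in EUE libraries, where both were at or under the floor.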

Other observations

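Runs like the 2 of the stretch, with at least 5 single and 5 joined IDs at the minimum, numbered 193 over the whole table. The median single ERC ID was above the median joined ID, in the log2 difference of PEG over EUE libraries, in 108 of them and below it in 85, and the median gap was 0.03. The second run, taken whole, had a gap of 1.62 (24 single and 46 joined IDs); counting itself, 2 of the 193 runs had a gap as high, and 1 had a single median as high as its 1.66. The first run, taken whole, had a joined median of −0.70 over 34 IDs, and 2 of the 193 runs, itself included, had one as low; its 7 single IDs had a median of −1.10, and all 193 runs, itself included, had one as high, so it was the lowest, whereas the 5 of them in the stretch had a median of 0.02. The runs were looked at because the stretch had already stood out, so these places are a description.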
